A study of Mus musculus with 3 samples.

Results

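Ago2 HITS‐clip peaks that lay far from any annotated gene, yet came back at the same place and on the same strand in another library, were examined in N2A cells. N2A is a mouse neuroblastoma line that grows in culture and carries neuronal features. A recurrent peak was a deposited peak of 86 to 200 nt on an autosome whose midpoint lay more than 10000 nt from every GENCODE M21 gene on either strand and which overlapped, on its own strand, a peak of the same width class in at least 1 other library. Members were therefore chosen by their measured width, position and overlap between libraries. Of 68988 peaks of this width far from genes, 5301 (7.68%) met the rule, out of 2039384 peaks deposited in all. They numbered 1739, 1420 and 2142 in replicates 1, 2 and 3. Member peaks that overlapped on 1 strand were merged, which gave 2275 loci, of which 1052 lay on the plus strand and 1223 on the minus strand.

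The study used the assay to find transcripts bound by Ago2 in N2A cells under basal conditions, with miR-21a-5p as its main interest. All 3 libraries formed a single group of untreated cells with no genetic change named for them. Ultraviolet crosslinking was done at 400 mJ/cm2 and repeated at 200 mJ/cm2. Ago2 and its RNA were pulled down with the antibody clone 2D4. No separate cultures are named for the replicates, so p-values measure the spread between these samples, which may be technical.

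Argonaute 2 holds a microRNA (miRNA) and pairs it with target RNA through the seed, the bases near the 5′ end of the miRNA. Most known targets are messenger RNAs, but the protein can also be crosslinked to other RNA that it or its miRNA touches. Regions far from genes are not silent. They contain transcription units missing from an annotation, primary transcripts that run far past a gene, and endogenous retroviruses, which are inherited copies of old viral insertions. An endogenous retrovirus carries a long terminal repeat at each end and reading frames for structural proteins and reverse transcriptase between them, and mouse cells transcribe several such families. Transfer RNA (tRNA) genes are transcribed by RNA polymerase III into precursors with a short 3′ trailer that is cut off.

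The loci with the most exact ends are shown first, since they carry the pattern described for single peaks below. These 8 loci had a member peak in all 3 libraries, a central 30 nt that occurs once in the genome, and the smallest spread of starts and stops. Sequences are from GRCm38 (mm10), written 5′ to 3′ on the strand of the peaks. Capitals mark the bases more than 30 nt from both ends, because the deposited intervals appear to carry 30 nt of padding at either end.
chr3:44248498-44248585 (minus strand): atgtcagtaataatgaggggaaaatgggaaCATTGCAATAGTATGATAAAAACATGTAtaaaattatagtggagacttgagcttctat
chr6:143559455-143559540 (plus strand): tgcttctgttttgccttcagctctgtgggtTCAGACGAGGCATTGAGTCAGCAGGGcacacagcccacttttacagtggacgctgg
chr10:54151634-54151719 (plus strand): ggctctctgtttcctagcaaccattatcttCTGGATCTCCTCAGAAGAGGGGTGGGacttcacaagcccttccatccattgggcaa
chr15:42367649-42367734 (plus strand): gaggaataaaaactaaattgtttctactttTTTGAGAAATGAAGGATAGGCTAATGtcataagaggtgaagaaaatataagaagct
chr2:56981610-56981696 (plus strand): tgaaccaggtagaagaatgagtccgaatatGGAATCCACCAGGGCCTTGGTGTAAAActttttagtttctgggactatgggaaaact
chr2:131436272-131436359 (plus strand): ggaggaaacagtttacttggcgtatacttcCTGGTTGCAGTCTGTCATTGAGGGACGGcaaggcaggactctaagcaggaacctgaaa
chr8:29838983-29839071 (minus strand): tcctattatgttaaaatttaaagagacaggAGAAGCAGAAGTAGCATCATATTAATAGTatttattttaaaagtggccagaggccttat
chr13:19574377-19574515 (plus strand): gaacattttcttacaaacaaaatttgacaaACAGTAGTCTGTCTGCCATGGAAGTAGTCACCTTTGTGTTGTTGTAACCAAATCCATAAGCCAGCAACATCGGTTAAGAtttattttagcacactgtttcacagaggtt

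Long stretches of loci on 1 strand, called runs below, carry the largest group of loci seen in all 3 libraries. For the 2 largest runs, the bases spanned by the peaks of all 3 libraries are shown for the locus with a listed miRNA seed site and the smallest spread of ends. Capitals mark the match to bases 2 to 8 of miR-23a-3p in the first sequence and of miR-15a-5p and miR-16-5p in the second.
chr8:82720222-82720329 (minus strand): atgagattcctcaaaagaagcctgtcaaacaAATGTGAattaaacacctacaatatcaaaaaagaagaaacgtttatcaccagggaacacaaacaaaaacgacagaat
chr3:6785892-6785994 (minus strand): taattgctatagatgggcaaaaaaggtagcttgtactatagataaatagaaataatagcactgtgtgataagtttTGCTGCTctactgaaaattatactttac

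A pair of loci overlapped tRNA genes of the RefSeq annotation, n-TTagt3 on chromosome 13 and n-TPagg5 on chromosome 3. They were chosen after their values were seen. Capitals mark bases of the tRNA gene, which the first locus holds whole and the second only in its last 34 nt, and the lower-case bases after them lie 3′ of the gene.
chr13:21249127-21249300 (minus strand): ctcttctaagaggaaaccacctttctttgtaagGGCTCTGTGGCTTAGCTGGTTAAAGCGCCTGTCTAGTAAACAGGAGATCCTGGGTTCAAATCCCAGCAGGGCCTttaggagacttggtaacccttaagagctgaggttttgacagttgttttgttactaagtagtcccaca
chr3:51359445-51359546 (plus strand): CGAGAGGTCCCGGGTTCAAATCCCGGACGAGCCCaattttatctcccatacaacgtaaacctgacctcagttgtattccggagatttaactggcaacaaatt

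The seeds searched in the members are shown for 4 of the 20 listed miRNAs with a sequence in the RefSeq miRNA table (GRCm38.p6), those described most closely below. Capitals mark bases 2 to 8.
miR-21a-5p: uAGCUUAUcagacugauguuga
let-7a-5p: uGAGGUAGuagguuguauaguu
miR-92a-3p: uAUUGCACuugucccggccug
miR-24-3p: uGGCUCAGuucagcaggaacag

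The deposited table held 711377, 498071 and 829936 peaks for replicates 1, 2 and 3. It lists intervals and no counts, so read depth is unknown, and all intervals below are 95% Wilson intervals that cover only the counting of peaks. On autosomes 163628, 152850 and 341012 peaks had a width of 86 to 200 nt, and 28617 (17.5%), 13220 (8.65%) and 27151 (7.96%) of them lay far from genes. Replicate 1 thus had the largest share of its peaks far from genes. In each library 13 of 16 listed neuronal genes held a peak, not the same 13 each time, and Th and Nefl held none in any. Of 6 listed blood genes, 2, 2 and 4 held a peak. The blood gene Ptprc held 22, 8 and 25 peaks, more than Tubb3 (2, 6 and 5) and fewer than Syt1 (197, 66 and 166). Peaks were counted anywhere in a gene. The share over all genes was not computed, so these counts do not test the cell type. The deposited score was 60 for 97.5% of the members and lay between 54.8 and 60 for all of them, so it ordered no loci.

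Peaks came back mostly on their own strand. Among peaks far from genes, 6.08% (interval 5.81 to 6.36) of replicate 1, 10.7% (10.2 to 11.3) of replicate 2 and 7.89% (7.57 to 8.22) of replicate 3 met the rule. On the opposite strand only 0.811%, 1.12% and 0.785% overlapped a peak of another library, or 0.86% over all libraries. The same-strand share was 7.5, 9.59 and 10.1 times the opposite-strand share in replicates 1, 2 and 3 (9.05 ± 1.36, mean ± SD, n = 3). With peaks of 79 to 200 nt the mean ratio was 2.98, and with each library left out in turn it was 16.5 without replicate 1, 8.62 without replicate 2 and 7.54 without replicate 3. Since same-strand overlap chose the members, these shares are a description.

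Recurrence far from genes was rarer than elsewhere. Over all autosomal peaks of this width, 25.4% overlapped on the same strand a peak of another library (19.5%, 39.5% and 22% in replicates 1, 2 and 3) and 1.1% did so on the opposite strand (1.4%, 1.31% and 0.868%). Inside genes of the same strand these shares were 31.2% (28.4%, 46.8% and 25.4%) and 0.773% (0.776%, 0.989% and 0.676%). Replicate 2, which had the fewest peaks, had the highest same-strand share in each of these sets.

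Only 745 of the 5301 members (14.1%) overlapped a peak in both other libraries. Of the loci, 219 held members of all 3 libraries, 416 of replicates 1 and 2, 951 of replicates 1 and 3, and 684 of replicates 2 and 3. The remaining 5 loci held members of a single library because the partner peak lay within 10000 nt of a gene. A locus had a median length of 114 nt and a median distance of 35460 nt to the nearest gene, and 323 loci lay more than 100000 nt from any gene.

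The loci fell into 3 classes, which were defined after the data had been seen. A total of 454 loci stood in runs, where at least 5 loci on the same strand followed each other with gaps of at most 10000 nt. This count was much lower whenever a library was left out, as given in the last section. Another 654 loci matched the sense strand of a retrovirus-like element that is repeated across the genome. The other 1167 loci lay outside runs and had no sense-strand match to the element, although some of them were also close together. A match to the antisense strand of the element, found at 2 loci, did not place a locus in the element class. A locus in a run was found in all 3 libraries in 110 cases (24.2%), a locus in the element in 70 (10.7%) and any other locus in 39 (3.34%).

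The 18 runs were stretches of 4.55 to 128 kb with many short peaks on 1 strand and, by the rule, no GENCODE gene. Together they covered 527.874 kb on 13 chromosomes and held 471, 355 and 612 members of replicates 1, 2 and 3. All 18 runs held members of every library. A single run, that on chromosome 15 between Fbxl7 and Gm6576, also held a locus on the other strand. Same-strand position was used to define the runs, so their strandedness in members is a description.

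The largest run lay at chr8:82609545-82737541 on the minus strand, between the processed pseudogenes Gm8167 and Gm9655, both of which are on the plus strand. It held 131 loci, of which 41 were found in all 3 libraries, and 164, 120 and 186 member peaks in replicates 1, 2 and 3. Loci covered 21.1% of its 128 kb, and the window from 82650001 to 82700000 alone held 70 loci on this strand and 0 on the plus strand. The next run, chr3:6762344-6798317 on the minus strand, was shorter and denser, with 65 loci in 36.0 kb and 39.4% of its length covered. It held 75, 36 and 134 members, so replicate 2 had the fewest here. The olfactory receptor pseudogene Olfr289-ps1, also on the minus strand, lay 10.3 kb to its left.

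A run of 56 loci on the minus strand of chromosome 18 held 58, 37 and 52 members and lay between the snoRNA gene Gm24246, at 50.9 kb, and the processed pseudogene AC161519.2, at 10.3 kb, both on the plus strand. On chromosome 5, chr5:80062630-80083877 on the plus strand held 32 loci with 40, 31 and 48 members, 15 kb before the small nuclear RNA gene Gm24304. The run chr11:31549920-31583245 on the plus strand, with 27 loci and 19, 19 and 31 members, lay between Stc2, which encodes stanniocalcin 2, and Bod1, whose product acts in chromosome biorientation. Both flanking genes are on the minus strand, opposite to the run. The run chr13:89366332-89384410 on the minus strand, with 24 loci, lay between Edil3 and Hapln1, which encode extracellular matrix proteins and are on the plus strand. The 12 smaller runs held 5 to 18 loci each.

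**Figure D1:**
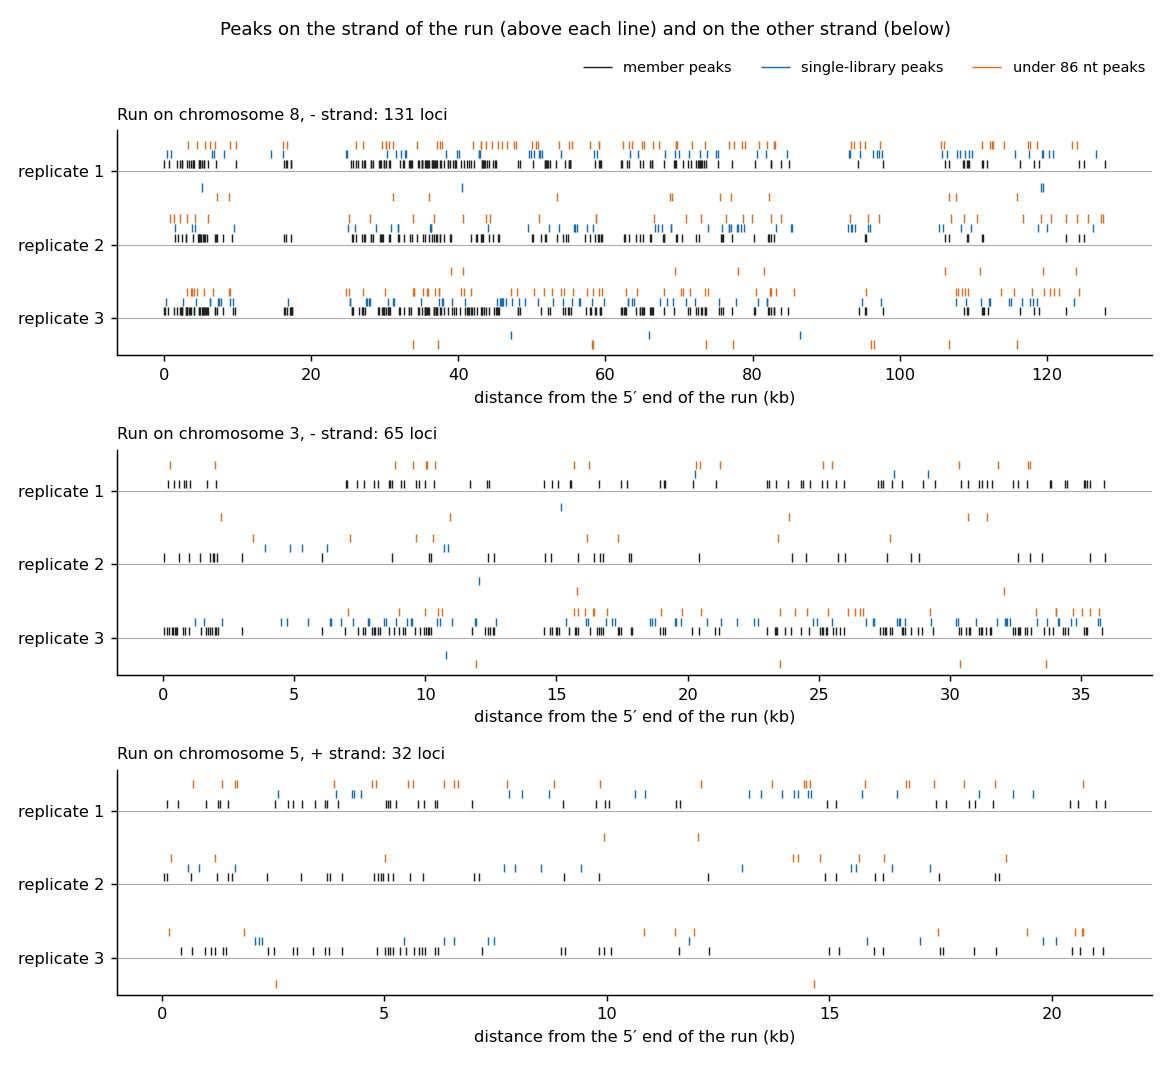
Position of peaks along the runs on chromosomes 8, 3 and 5, in kb from the 5′ end of each run, for each library. Marks above a line are peaks on the strand of the run and marks below it are peaks on the other strand, for members (black), peaks of 86 to 200 nt found in a single library (blue) and peaks under 86 nt (orange). In all 18 runs together, 96.3%, 94.9% and 96.5% of the single-library peaks in replicates 1, 2 and 3 lay above the line.

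Peaks that the rule did not use lay on the same strand as the runs. Among peaks of 86 to 200 nt in the runs that overlapped no other library, 312 lay on the run strand and 12 on the other in replicate 1 (96.3%, interval 93.6 to 97.9). The counts were 204 and 11 in replicate 2 (94.9%, 91.1 to 97.1) and 388 and 14 in replicate 3 (96.5%, 94.2 to 97.9). Peaks under 86 nt, a class left out by the rule, divided 299 to 54, 149 to 36 and 244 to 52 (84.7%, 80.5% and 82.4%). With the libraries pooled, most peaks under 86 nt lay on the run strand in each of the 18 runs. This did not hold in every library. In the run of 9 loci on the minus strand of chromosome 8 they divided 13 to 7, 4 to 4 and 3 to 7. Peaks over 200 nt were few, with 3 against 5, 3 against 2 and 6 against 2 on the run strand and the other strand.

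The runs had the lowest GC content of the classes and little repeated sequence. Mean GC of run members was 33.6 ± 0.736% (mean ± SD, n = 3), against 37.2 ± 0.715% for single-library peaks far from genes and 39.0 ± 1.46% for recurrent peaks inside genes. Run members minus single-library peaks gave -3.98, -3.5 and -3.25 percentage points in replicates 1, 2 and 3 (exact sign-flip permutation test over libraries, two-sided, p = 0.25, the smallest that 3 libraries allow). Repeat-masked bases made up 25.8 ± 0.359% of run members, and the central 30 nt occurred more than once in the genome for 1.29 ± 0.272% of them. For recurrent peaks inside genes the share with a repeated centre was 0.881 ± 0.286%. Their repeat-masked bases made up 18.2 ± 2.31%, below the run members in all 3 libraries.

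RefSeq, a second annotation that did not enter the rule, placed a same-strand gene over only 2 of the 18 runs. A run of 9 loci on the minus strand of chromosome 8 overlapped the long non-coding RNA gene 1700019L22Rik, and a run of 6 loci on chromosome 10 overlapped Samd5, a protein-coding gene that RefSeq extends into this region. Over all loci, 106 (4.66%) lay in a RefSeq gene of the same strand and 68 in a gene of the opposite strand. The former were 67 loci in long non-coding RNAs, 23 in protein-coding genes, 15 in pseudogenes and 2 in tRNA genes, where a locus can lie in more than 1 gene. Samd5 held 12 of these loci and 1700019L22Rik held 10, the most of any RefSeq gene.

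Neighbouring loci shared their strand also outside the runs. Of neighbours within 10000 nt, 665 of 677 (98.2%, interval 96.9 to 99) lay on the same strand. With peaks of 79 to 200 nt in place of 86 to 200 nt the share was 63%, within the range of the single-library peaks given below. Outside the runs the count was 230 of 240 (95.8%, 92.5 to 97.7), and for the other loci alone 75 of 78 (96.2%, 89.3 to 98.7). Single-library peaks far from genes lay on the strand of their neighbour in 60.5%, 69.2% and 64.7% of cases in replicates 1, 2 and 3. Neighbours 500 to 10000 nt apart, which cannot be pieces of the same short peak, shared their strand in 160 of 169 cases outside the runs (94.7%, 90.2 to 97.2).

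The loci of the retrovirus-like element held 1442 members, 422, 462 and 558 in replicates 1, 2 and 3, on all 19 autosomes. Counts by strand below match each peak to the element on its own and so differ slightly from these counts by locus. It was found through shared sequence: loci with a common word of 20 nt formed 34 families, the largest of which had 642 loci and the next 35. The copy used as reference lay at chr10:19538910-19546007 on the minus strand, and another copy at chr11:90960188-90967273 on the minus strand. In each case all 642 loci matched the window of 8000 nt on either side of the member locus there. The window is wider than the copy. The reference copy was 7098 nt long and ended in paired terminal repeats of 339 nt with 100% identity. It held 4 long reading frames on its forward strand (617, 527, 367 and 307 residues), and the frame of 367 residues held a motif found at the catalytic site of reverse transcriptases. The longest frame on its reverse strand had 137 residues. Identical terminal repeats with open frames between them are the layout of an endogenous retrovirus, but no repeat annotation was used here and the family is not named. Its sequence is not printed.

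Peaks in the element followed the strand of the element, not of the chromosome. Loci lay on the plus strand of the chromosome in 332 cases and on the minus strand in 322. Member peaks lay on the sense strand of the element in 422 cases and on the antisense strand in 2 in replicate 1 (99.5%), in 460 and 1 in replicate 2 (99.8%) and in 556 and 1 in replicate 3 (99.8%). Overlap between libraries does not fix this orientation, but the choice of the reference copy does in part. Its sense strand is that of a member locus, and copies were ranked by matches of member loci on that strand. Single-library peaks did not enter this choice. Single-library peaks gave 851 sense and 145 antisense in replicate 1 (85.4%, interval 83.1 to 87.5), 861 and 18 in replicate 2 (98.0%, 96.8 to 98.7), and 2176 and 61 in replicate 3 (97.3%, 96.5 to 97.9). Replicate 1 thus held more antisense peaks in the element than the other libraries. The few peaks far from genes that met a peak of another library on the opposite strand differed too, with 7 sense and 45 antisense in replicate 1, 28 and 6 in replicate 2, and 36 and 8 in replicate 3.

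**Figure D2:**
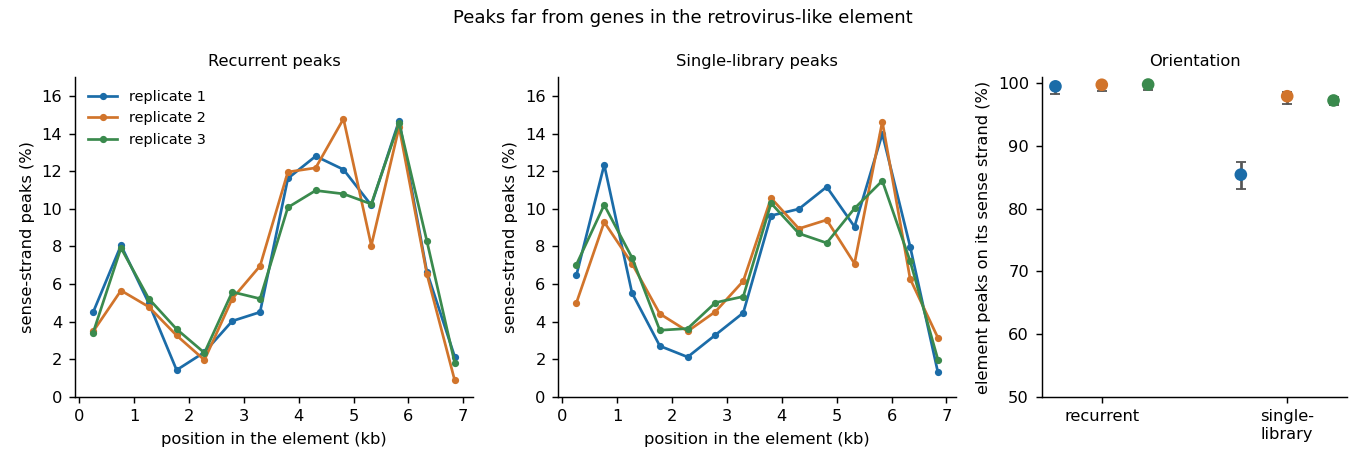
Peaks far from genes in the retrovirus-like element. The first panels give the percent of sense-strand peaks in each of 14 bins along the element (kb from its 5′ end) for recurrent and for single-library peaks, with a line for each library, and the last panel gives the percent of element peaks on its sense strand with 95% Wilson intervals. The profiles of the libraries follow each other, and single-library peaks of replicate 1 stand lowest in orientation, at 85.4%.

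The peaks were spread unevenly along the element. Of the sense-strand members, 70.1%, 68.7% and 66.7% lay between its midpoint and its 3′ end in replicates 1, 2 and 3. The last of 14 bins held the fewest, 1.60 ± 0.654%, and the twelfth the most, 14.5 ± 0.174% (mean ± SD, n = 3). The terminal repeats of 339 nt are identical and lie in the first and last bins. Each peak was given a single place, so a peak inside a repeat fits either bin. Values of these bins, and the shares past the midpoint, are uncertain to that extent. The profiles of the libraries had Pearson correlations of 0.939, 0.966 and 0.928 across the 14 bins, and the members followed the single-library peaks of their own library with 0.914, 0.868 and 0.874. Bins of the same element are not independent replicates, and no test was made of these values.

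The element made up 24.4%, 32.5% and 26.0% of the members in replicates 1, 2 and 3, but 3.71%, 7.45% and 8.94% of the single-library peaks. Put the other way, 33.2%, 34.8% and 20.4% of sense-strand element peaks far from genes recurred, against 4.84%, 8.07% and 6.51% of peaks with no match to it, values that the rule itself selects on. How reads that fit many copies were placed is not given in the sources used here. The central 30 nt occurred more than once in the genome for 53.1%, 53.7% and 59.7% of sense-strand members, and for 77.0%, 78.2% and 83.1% of the single-library peaks on the sense strand. Element members thus had a unique centre more often than element peaks found in a single library. The part of read placement in these shares was not tested.

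The loci with the most copies among those found in all 3 libraries were all in the element. At chr14:108173816-108173960 on the plus strand, the central 30 nt of the peaks in replicates 1, 2 and 3 occurred 2477, 1228 and 1057 times in the genome. At chr15:103610452-103610635 on the plus strand the counts were 1, 1 and 2471, so this locus was supported by unique centres in replicates 1 and 2. At chr7:55411071-55411283 replicate 1 had a centre with 1721 copies, replicate 2 a unique centre, and replicate 3 a unique centre and another with 1586 copies. At chr15:38615577-38615743 the counts were 1657, 63 and 1637.

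Sequence separated the classes more than it separated members from single-library peaks as a whole. Element members had a GC content of 42.8 ± 0.387% and were 98.8 ± 0.313% repeat-masked. Other members had 36.1 ± 0.945% GC and were 47.5 ± 3.73% masked, close to the single-library peaks at 37.2 ± 0.715% and 50.4 ± 2.88%. Over all members, GC minus that of single-library peaks was -0.671, 0.373 and 0.578 percentage points in replicates 1, 2 and 3 (0.0932 ± 0.670, exact permutation test, p = 1), with no common direction. Repeat-masked bases were more frequent in members than in single-library peaks, by 3.62, 9.96 and 2.97 points (5.52 ± 3.86, exact permutation test, two-sided, p = 0.25), in all 3 libraries.

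**Figure D3:**
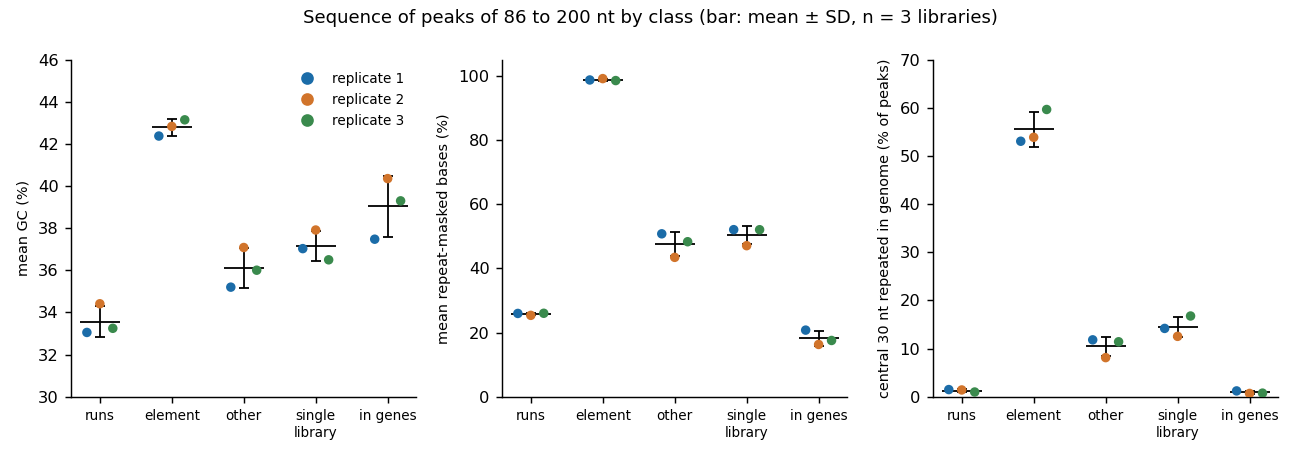
GC content (%), repeat-masked bases (%) and percent of peaks whose central 30 nt is repeated in the genome, for members in runs, in the element and elsewhere, for single-library peaks far from genes and for recurrent peaks inside genes. Points are libraries and bars are mean ± SD (n = 3). The element stands highest in every panel, at 42.8% GC, 98.8% masked and 55.6% repeated.

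A repeated centre was more common among members than among single-library peaks in every library, by 4.84, 8.80 and 4.24 percentage points in replicates 1, 2 and 3 (5.96 ± 2.48, exact permutation test, two-sided, p = 0.25). With a centre of 20 nt in place of 30 nt the mean difference was -0.546 ± 4.28 (exact permutation test, p = 0.75). With peaks of 79 to 200 nt it was 1.05, and without replicate 2 it was 2.98. The other members and the single-library peaks outside the element differed by -0.0876, 0.819 and 1.12 points (0.616 ± 0.628, exact permutation test, p = 0.5). These other members, without the runs, thus had no common direction. With the runs, members outside the element had a repeated centre in 8.12%, 5.64% and 7.39% of peaks, below the 11.9%, 7.31% and 10.3% of single-library peaks outside the element in every library.

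The 1167 other loci were the largest class and the least often found in all 3 libraries, and their peaks had the sharpest ends. Where a pair of libraries overlapped, the 5′ ends of the peaks were the same nucleotide in 31.3 ± 5.62% of the pairs of peaks (mean ± SD over 3 pairs of libraries), against 9.35 ± 2.10% in the element, 1.61 ± 1.08% in runs and 5.30 ± 2.68% for recurrent peaks inside genes. The 3′ ends were the same in 25.4 ± 2.87%, 7.95 ± 3.54%, 2.58 ± 1.46% and 4.98 ± 2.64%. The median distance between 5′ ends was 4 nt for other loci, 12.7 nt in the element, 34.3 nt in runs and 31 nt inside genes, each as the mean over library pairs. Because overlap chose the members, these values are a description. Pairs of libraries share libraries and are not independent.

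Identical peaks in all 3 libraries were found at 4 of the 39 other loci seen in every library, at 0 of 70 in the element and at 0 of 110 in runs. These 4 are the first 4 sequences shown above. The locus chr3:44248498-44248585, 88 nt long in each library, lay 244953 nt from the nearest gene, Gm37365. The locus chr6:143559455-143559540, of 86 nt, lay 23990 nt from 4930579D09Rik. The loci chr10:54151634-54151719 and chr15:42367649-42367734, both of 86 nt, lay 60057 nt from Gm47967 and 32063 nt from Gm49453. With a padding of 30 nt on each side, their unpadded parts were 28, 26, 26 and 26 nt long.

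The next 4 loci differed by 1 nt at a single end. The locus chr2:56981610-56981696 ended 1 nt later in replicate 2, and chr2:131436272-131436359 started 1 nt earlier in replicate 1. At chr8:29838983-29839071 the start in replicate 1 was 1 nt later, and at chr13:19574377-19574515, the only wide locus of the 8, the stop in replicate 2 was 1 nt later. The last lay 17260 nt from Epdr1 with an unpadded part of 79 nt. None of the 8 held a listed seed site. Whether identical ends came from separate molecules in each library could not be read from intervals and was not tested.

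The loci farthest from any gene among those found in all 3 libraries included 2 of these, chr3:44248498-44248585 and chr8:29838983-29839071 (242645 nt from Gm45492). The farthest, chr15:70411372-70411602 on the plus strand, lay 333581 nt from Gm19782 in a run of 5 loci. Its peaks started at 70411372 in replicate 1, at 70411450 and 70411510 in replicate 2 and at 70411512 in replicate 3, so the ends were spread as in the other runs.

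Runs of A on the strand of the peak were more frequent in the other loci than in run or element loci. The word AAAAAAAA was present on the peak strand of 27.2% of other loci and on the other strand of 2.74%. Single-library peaks far from genes, which include element peaks, also held it mostly on their own strand (13.1% against 2.28%). Among member peaks outside runs and the element the shares were 29.6%, 18.4% and 25.9% in replicates 1, 2 and 3, against 11.6%, 10.4% and 16.0% of single-library peaks and 4.04%, 2.78% and 2.95% of recurrent peaks inside genes. In each library the members stood above the single-library peaks. Of all peaks of 86 to 200 nt on autosomes, 6.16% held the word on their strand and 3.31% on the other. In 80%, 77.5% and 81.7% of the members with the word, it began more than 30 nt from both ends, as it did in 77.3%, 74.6% and 82.4% of single-library peaks with the word. Run loci (3.74%) and element loci (0.153%) rarely held it on their strand. The share of repeat-masked bases in members with the word was 70.2%, 70.4% and 70.2%, near the 67.5%, 67.0% and 66.5% of single-library peaks with it, and the part of repeats or of A-rich sequence in recurrence was not tested.

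Other words searched on both strands were less distinctive. The polyadenylation signal AATAAA was on the peak strand of 11.2% of members and on the other strand of 8.02%, against 10.4% and 10.7% of all peaks. The Pumilio element TGTANATA was on the peak strand of 1.81% of members and 2.39% of all peaks, and TGTGTGTG of 2.77% and 2.75%. The word GAGAGAGA was on the peak strand of 1.49% of members and 0.754% of all peaks, and of 3.52% of element loci. The word GTTCGANTC, a narrow form of the B box of RNA polymerase III genes, was in 0 of 5301 members on either strand, which allows a share of up to 0.0566%, and in 0.0259% of all peaks on the peak strand. It leaves out other forms of the box, such as GTTCAAATC, which both tRNA loci printed above hold. TTTTTTTT, read on the peak strand, is AAAAAAAA on the other strand and was in 1.66% of members.

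Of the tRNA loci, the locus at n-TTagt3 (gene chr13:21249194-21249267, minus strand) was found in all 3 libraries. With 30 nt removed from each end, its peaks in replicates 1 and 3 began 2 and 1 nt past the 3′ end of the gene and ended 37 and 30 nt past it. In replicate 2 the unpadded peak lay over the gene, from -76 to -43 nt relative to the same end. At n-TPagg5 (gene chr3:51359407-51359478, plus strand) the unpadded peaks of replicates 2 and 3 began at -3 and 13 nt relative to the 3′ end of the gene and ended 36 and 38 nt past it. Of these 5 peaks, 4 thus lay mostly or wholly in the sequence that follows the gene. RefSeq also places the locus at n-TTagt3 in Gm32525, a long non-coding RNA gene on the same strand, so tRNA precursor and this transcript cannot be told apart there.

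Mature miRNA sequences of the RefSeq table were found in 8 of the 2275 loci. In the 3 shown here, capitals mark the letters of the mature miRNA.
chr4:100758602-100758705 (minus strand): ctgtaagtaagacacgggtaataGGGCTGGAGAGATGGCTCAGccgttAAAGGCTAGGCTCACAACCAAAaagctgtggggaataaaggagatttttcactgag
chr9:69502900-69503005 (minus strand): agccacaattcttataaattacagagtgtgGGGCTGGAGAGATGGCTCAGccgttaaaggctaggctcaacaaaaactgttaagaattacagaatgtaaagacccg
chr12:72834329-72834495 (plus strand): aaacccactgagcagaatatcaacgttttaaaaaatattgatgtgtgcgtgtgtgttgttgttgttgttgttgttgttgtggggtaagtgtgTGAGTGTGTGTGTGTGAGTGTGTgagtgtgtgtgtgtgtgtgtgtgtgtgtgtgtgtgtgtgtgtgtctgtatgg
The first held miR-3473b and miR-690, and the next miR-3473b. The last held miR-574-5p, which lies in a long stretch of alternating T and G. These 3 loci were found in replicates 2 and 3, which does not hold for all 8. At the last of them the replicate 2 peak ended at 72834418, before the letters of miR-574-5p. Only the replicate 3 peak held that miRNA. The most repeated centre of their peaks occurred 233, 217 and 182 times in the genome, so much of these loci is not unique. In replicate 2 the centres occurred 3, 210 and 1 times.

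Many loci shared 30 nt with an annotated transcript. Of the element loci 93.6% shared 30 nt with a transcript on the same strand and 96.0% on the opposite strand, of the other loci 30.2% and 28.8%, and of run loci 10.1% and 8.81%. The shares on the strands differed by at most a few points in each class. The first such loci by the naming rule in all 3 libraries lay on chromosome 1. The locus chr1:24798861-24799033 on the minus strand shared 30 nt with transcripts of 2410024N13Rik, Olfr1440, Ptk2 and Tbxas1, and the other loci, at chr1:66020819-66020935, chr1:111258903-111259009 and chr1:112270142-112270337, were in the element. None of the 2275 loci shared 30 nt with the mitochondrial chromosome, which allows a share of up to 0.132%.

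Matches to listed miRNA seeds were not more common on the strand of the members than on the other strand of the same bases. In replicates 1, 2 and 3 the peak strand held 1.12, 1.46 and 1.17 matches per kb and the other strand 1.52, 1.66 and 1.57 (difference -0.333 ± 0.118, exact permutation test, two-sided, p = 0.25). The peak strand was lower in all 3 libraries. Inside genes, recurrent peaks had 1.90, 2.24 and 2.02 matches per kb on their strand and 1.47, 1.5 and 1.47 on the other (difference 0.574 ± 0.156, exact permutation test, p = 0.25), higher in all 3. Seeds of bases 2 to 7 gave members a difference of 0.00909 ± 0.177 per kb, and seeds followed by A gave 0.00374 ± 0.0238 (exact permutation test, p = 1 for both), so the direction depended on the site type.

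The difference stood in the element. Its members held 0.531, 0.741 and 0.817 matches per kb on their strand and 1.69, 1.94 and 2.07 on the other (difference -1.20 ± 0.0464, exact permutation test, p = 0.25). Members outside the element differed by -0.152, 0.308 and -0.0837 per kb (0.0240 ± 0.248, exact permutation test, p = 1), without a common direction. In the runs the differences were -0.237, 0.540 and 0.0939 per kb, and in the other members -0.102, 0.161 and -0.208. The element is 1 sequence in many copies, so its many loci do not count as separate sites.

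**Figure D4:**
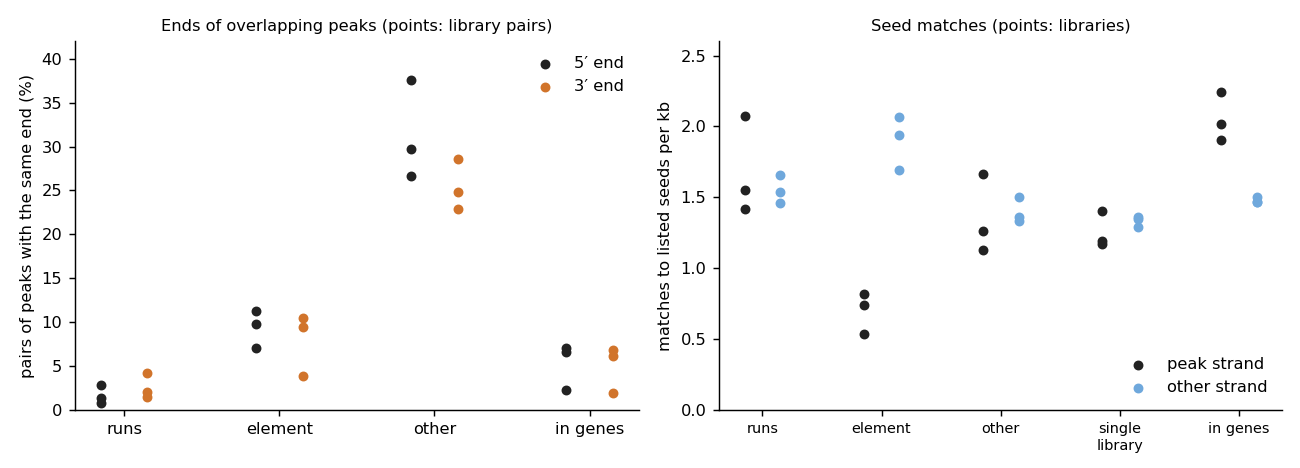
Ends and seed matches by class. The first panel gives the percent of overlapping pairs of peaks with the same 5′ or 3′ end, with a point for each pair of libraries, and the second gives matches to listed seeds per kb on the strand of the peak and on the other strand, with a point for each library. Other loci stand highest for shared ends (31.3% at the 5′ end on average), and the peak strand lies above the other strand in every library only inside genes.

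By single miRNA, the site of miR-21a-5p, ATAAGCT, was on the peak strand of 23 loci and on the other strand of 51. Of these, 8 and 36 were in the element, 9 and 9 in runs, and 6 and 6 in other loci, so outside the element the counts were equal. The let-7a-5p site CTACCTC was on the peak strand of 23 loci, 15 of them in the element, and on the other strand of 11. The site of miR-92a-3p, GTGCAAT, was on the peak strand of 11 loci and on the other of 47, with 1 and 36 in the element. For miR-24-3p the counts were 7 and 34, with 1 and 22 in the element. In the runs the most frequent sites on the peak strand were those of miR-23a-3p (14 loci, against 17 on the other strand), miR-26a-5p (14 and 6) and miR-15a-5p with miR-16-5p (13 and 7). In all, 325 of the 2275 loci held a listed site on the peak strand. miR-124-3p was listed and had no sequence in the table.

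Peaks of other widths, which the rule left out, were counted at loci found in only 2 libraries. In the library without a member, a peak under 86 or over 200 nt lay on the same strand at 76 of 684 loci for replicate 1 (11.1%, interval 8.97 to 13.7), 76 of 951 for replicate 2 (7.99%, 6.43 to 9.89) and 43 of 416 for replicate 3 (10.3%, 7.76 to 13.6). On the opposite strand the shares were 4.39%, 3.47% and 2.88%. At single-library peaks far from genes the same-strand shares were 4.84%, 4% and 4.82% and the opposite-strand shares 3.09%, 3.16% and 2.87%. The members' loci thus had a same-strand peak of another width more often than single-library places, in each of the 3 libraries. Loci, with a median of 114 nt, are longer than single-library peaks, with medians of 89, 88 and 89 nt, and the part of length in these shares was not tested. Run loci had the highest same-strand shares, 19.4%, 11.0% and 23.8%, and also the highest opposite-strand shares, 7.41%, 6.94% and 4.76%. Element loci had 6.20% (3.79 to 9.97), 9.09% (5.90 to 13.8) and 5.34% (2.61 to 10.6), and in replicates 1 and 3 these intervals hold the shares of single-library peaks.

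Members were spread over all autosomes, with an excess on chromosome 8 that lay in its runs. The density per Mb of sequence far from genes was 6.02 ± 1.25 on chromosome 8 (6.06, 4.76 and 7.25 in replicates 1, 2 and 3) and 1.69 ± 0.401 without the runs. On the other chromosomes it ranged from 0.996 ± 0.413 on chromosome 12 and 1.00 ± 0.410 on chromosome 19 to 2.81 ± 0.555 on chromosome 18, which fell to 1.26 ± 0.291 without its runs. Without runs, chromosome 10 had the highest value, 2.14 ± 0.382, so chromosome 8 no longer stood out.

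**Figure D5:**
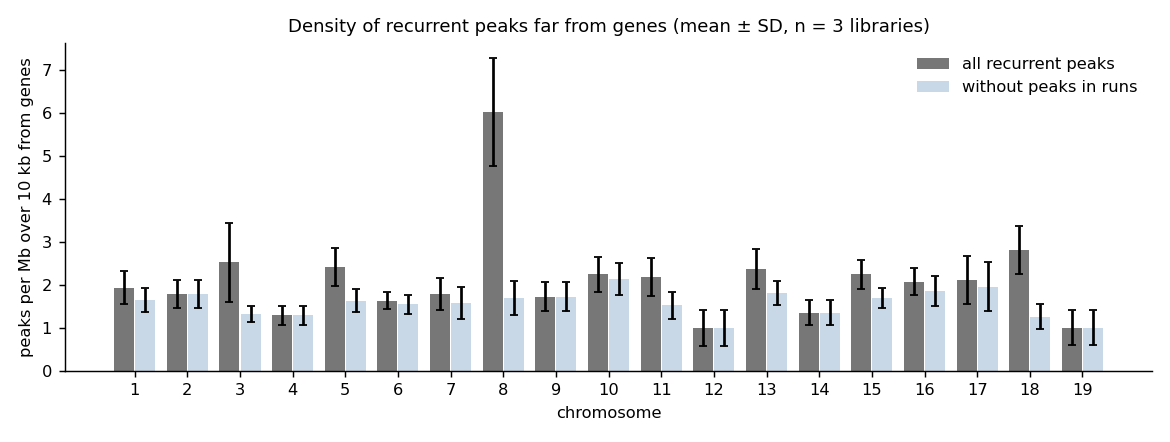
Recurrent peaks per Mb of sequence more than 10 kb from genes, for each autosome, with all members (dark bars) and without members in runs (light bars). Bars are mean ± SD over 3 libraries. Chromosome 8 stands at 6.02 per Mb with its runs and at 1.69 without them.

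Recurrence was lowest more than 100 kb from genes in every library. The share of peaks far from genes that recurred was 8.58 ± 2.59% at 10 to 20 kb, 8.56 ± 2.07% at 20 to 50 kb, 8.47 ± 2.43% at 50 to 100 kb and 6.70 ± 2.45% beyond (mean ± SD, n = 3). Within replicates 1, 2 and 3 the share beyond 100 kb was 4.48%, 9.33% and 6.29%, and the lowest of the nearer classes was 6.27%, 10.7% and 7.91%. No test was made of these shares, since the rule uses both overlap and distance. Members per Mb were 2.32 ± 0.481, 2.27 ± 0.508, 2.20 ± 0.407 and 1.62 ± 0.331 in the same classes. At the limits of the rule, 2.32% of peaks of 85 nt and 4.58% of peaks of 86 nt met a peak of the other libraries, and 555 members were exactly 86 nt wide. The nearest member lay 10001 nt from a gene and the nearest peak left out 9999 nt. The smallest overlap was 1 nt, the median 85 nt, and 12.1% of overlapping pairs shared fewer than 30 nt. Padding of both peaks can itself give an overlap, and 3911 of the 5301 members still met the rule with 30 nt trimmed from each side of every peak.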

How the data were processed

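Ago2 HITS‐clip libraries of 3 samples of N2A cells were analysed. The deposited table holds 1 row per peak, called by the authors in each sample, with its position, strand, sample and a score of unstated unit. The submitters' processing notes name FastQC, cutadapt, STAR and mm10. The peak caller, its threshold and the handling of reads with many placements are not given in the sources used here. Starts went down to -30, so peaks were read as padded by 30 nt.

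Distances used GENCODE M21, and sequence came from GRCm38.p6. The members and lists were chosen with earlier results of these data known. Runs and the retrovirus-like element were defined after seeing the data. Overlap required at least 1 nt. Copies of the central 30 nt were counted in the genome on both strands. Peaks were matched to the element with BLAST+ 2.17.0 (E value of at most 1e-08, at least 50% of the peak). Of 21 listed miRNAs, 20 had a sequence, with 19 distinct seeds. Comparisons with single-library peaks used exact sign-flip permutation tests over the 3 libraries, two-sided, with a smallest p of 0.25. Shares have 95% Wilson intervals. Values were computed per library.

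Loci were named by rule: up to 8 in all 3 libraries with a unique centre and the smallest spread of ends, up to 4 with the most copies, the 50 kb windows with the most loci on 1 strand, the 3 farthest from genes, and up to 4 of each kind with a mature miRNA, mitochondrial or transcript sequence, or a B box. A locus that the rule names is not reported here. The overlap, gene distance, width class, padding, seed type, centre length, neighbour distance and replicates were varied. The steps for overlap, distance and copies were tested on simulated data and gave the planted answers. Sex chromosomes were left out of the comparisons. No other sample columns were present (0). Computation used pandas 2.3.3, numpy 2.4.6, scipy 1.17.1, Biopython 1.88 and matplotlib 3.10.9 under Python 3.11.15.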

Additional observations from a re-analysis of the deposited data

Results flagged for a closer look

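Peaks that met the rule in every respect but their chromosome were counted on the sex chromosomes, which the comparisons do not use. Whether their shares differ from those of the autosomes was not tested. On chromosome X there were 340 such peaks, 103, 96 and 141 in replicates 1, 2 and 3 of 2423, 943 and 2260 peaks far from genes. On chromosome Y there were 73, with 25, 18 and 30 of 188, 86 and 296.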

How the results depend on the processing

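Of 72 alternative values, 42 were classed as the same, 25 as moved and 5 as changed in sign. For the differences in GC, repeated centres and seeds only the sign was compared, so a value classed as the same can differ in size. GC of members minus single-library peaks was -0.784 without replicate 2 and -0.401 without replicate 3, and ranged from -0.784 to 1.02 percentage points over the libraries left out. It was 1.3 beyond 50000 nt from genes and 1.26 for the central 30 nt. The difference in repeated centres was -0.546 points with a centre of 20 nt and 1.05 with peaks of 79 to 200 nt, and ranged from 2.98 to 6.09 with a library left out. The seed difference was 0.00374 per kb for seeds followed by A and 0.00909 for bases 2 to 7, and ranged from -0.416 to -0.212. The same-strand over opposite-strand ratio was 10.7 with an overlap of 30 nt, 11.5 with 50% of the shorter peak, 12.9 with trimmed peaks and 2.98 with peaks of 79 to 200 nt, and ranged from 7.54 to 16.5. Members numbered 40989 with peaks of 79 to 200 nt and 1931 beyond 50000 nt, and 1357 to 2674 with a library left out. Loci in all 3 libraries numbered 1510 and 73 under the same settings, and cannot be counted with a library left out. Neighbouring loci shared their strand in 63% of cases with peaks of 79 to 200 nt, 97.8% with trimmed peaks, 93.6% within 50000 nt and 97.2% at 500 to 10000 nt, and 98.3% to 99.6% with a library left out. Settings for runs and the element were chosen after seeing the data. Loci in runs numbered 124 to 264 and sense-strand element members 410 to 650 with a library left out, against 454 and 1438.

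No paired analysis was possible because all samples form a single group. Read depth is unknown, so a peak missing from a library cannot be told apart from too few reads there. The causes of these changes were not tested, except that leaving out a library leaves only 1 pair in which a peak can recur.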
